A study of Mus musculus with 336 samples.

Results

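This account describes how messenger RNA in wild-type (WT) mouse liver differed between the libraries labelled T06 and those labelled T00, the first interval of a short time course. The members were chosen by their labels alone. They were the 3 WT libraries at T06 and the 3 at T00, each sequenced in 2 runs, so that 12 of the 336 runs of the series entered. Each library held 1 value per gene in FPKM (fragments scaled to transcript length and library size), a scale on which genes of different length can be compared.

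Both WT groups came from mice of the C57BL/6 strain background carrying no deletion. The matching KO groups, used where stated, were Bmal1-/- on the same background, again with 3 libraries at T00 and 3 at T06. The study's protocol describes liver cut into small slices that were given 100 nM dexamethasone for 15 min, a glucocorticoid pulse that sets cellular clocks to a common phase, then washed and kept in HEPES-buffered medium. The labels of these libraries call the tissue mouse liver, with no word on slices. They give neither the unit of the T numbers nor the time between the pulse and T00, and they state neither the animals' age and sex nor whether the 3 replicates of a group were separate animals. P-values therefore measure the spread between these libraries. T00 and T06 differed in everything that happened to the tissue between them, and handling, culture, the glucocorticoid and time cannot be told apart in this comparison.

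As background, hepatocytes make most plasma proteins, bile acids and urea, and a small set of transcription factors, among them HNF4A and CEBPA, maintains those genes. Cutting and culturing liver is known to set off an injury programme in which growth and stress signals switch on immediate early genes, NF-kB switches on cytokines, and hepatocyte genes decline. The circadian oscillator of the same cells is a feedback loop in which BMAL1 (gene Arntl) and CLOCK activate the Per, Cry and Nr1d genes, whose products repress their own activation, and glucocorticoids act directly on Per1.

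Of 47631 genes in the table, 12122 had a mean of at least 1 FPKM over the 6 libraries and were tested on the log2(FPKM + 1) scale. At an adjusted p below 0.05 (limma, Benjamini-Hochberg), 2885 genes were higher at T06 (23.8% of those tested) and 3463 were lower (28.6%). Restricted to log2 differences of 1 or more in size, 1443 were higher (11.9%) and 565 were lower (4.66%). Large changes were therefore mostly rises, while falls were more numerous and smaller. The greater number of falls depended on the setting. With no filter 3696 genes were higher and 3136 lower. Without T00 replicate 2 the counts were 2307 and 2223, and without T00 replicate 3 they were 2305 and 2294. Rises also outnumbered falls under the rescaling described below. The pseudocount understates the change of genes with low FPKM.

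**Figure D1:**
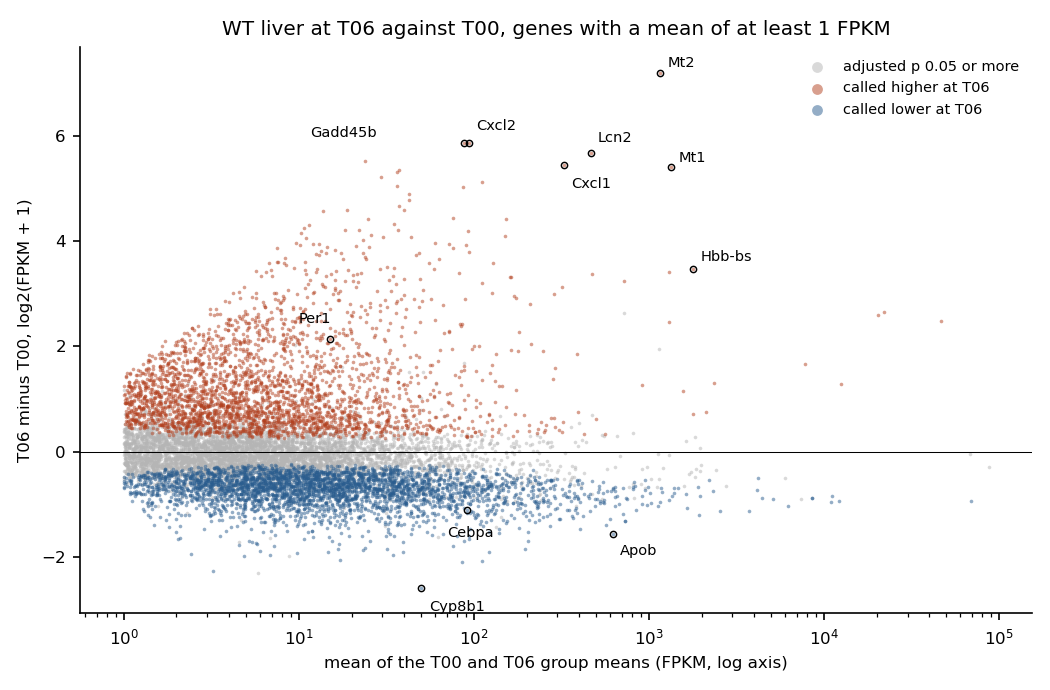
Each point is a gene with a mean of at least 1 FPKM and no library listed at 0, placed by its mean level in FPKM (log axis) and its T06 minus T00 difference in log2(FPKM + 1), with called genes in orange (higher) or blue (lower). Rises extend to 7.21 (Mt2), whereas the fall of Cyp8b1 (-2.59) is the lowest of those marked.

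Several properties of the libraries bear on every result. Depth is unknown, since FPKM carry no read counts. The genome of the mitochondrion gave 6.93 to 10.9% of all FPKM at T00 and 19.7 to 22.9% at T06. Several of its genes were listed at 0 in whole groups, so this share does not measure a mitochondrial level. The totals of nuclear protein-coding genes above 0 in every library were lower at T06. These totals leave out Alb, Mup7 and Mup14, which were listed at 0 throughout T00. Rescaling the libraries to make these totals equal was an alternative chosen after seeing the data. This rescaling raised the median of all genes from -0.10 to 0.23, a shift of 0.33. It turned the calls into 4067 higher and 1178 lower (33.6% and 9.72% of those tested). Under it 77.5% of calls were higher, against 45.4% as deposited. List counts below are to be read beside these shares and those as deposited (23.8% higher and 28.6% lower). All 1443 large rises remained called under it, as did 508 of the 565 large falls. Counted anew under it, however, 2102 genes were higher by at least 1 and 127 lower, so the number of large falls depends on scaling too. Whether the mitochondrial share has a part in any result was not tested. In all, 464 tested genes were listed at exactly 0 in some library. Alb, the albumin gene and normally the most abundant liver message, was listed at 0 in all 3 T00 libraries and at 11600, 19400 and 25000 FPKM at T06. The mitochondrial gene mt-Nd2 was listed at 12600, 20700 and 18500 FPKM at T00 and at 0 in all T06 libraries. Such zeros can be failed estimates, so no fold is given for these genes, nor for Mup7 and Mup14, which were at 0 throughout T00. The tissue label itself was borne out by the other hepatocyte genes, with Apoa1 at 7900 to 8780 FPKM at T00.

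The 12 largest rises and 12 largest falls among called genes whose T00 and T06 libraries did not overlap, leaving out genes with a library at 0, show what kinds of genes moved most. The restriction to genes without zeros was made after the values were seen, and removed Npy on the rising side, which was listed at 0, 0.079 and 0 FPKM at T00 and at 81.3, 42.7 and 38.9 at T06. Mt2, a metallothionein that binds zinc and copper, led the rises, and its relative Mt1 was also among them. Mt2 was at 19.3, 14.1 and 11.4 FPKM at T00 and at 1980, 2630 and 2340 at T06. Its difference was 7.21 ± 0.21 (SE, adjusted p = 1.49e-05), and the ratio of group means was 155. Mt1 went from 72.2, 53.6 and 56.7 to 2250, 2930 and 2690 FPKM. Both genes had all T06 libraries far above all T00 libraries.

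Gadd45b, a stress-induced regulator of MAP kinase signalling, was at 2.14, 1.87 and 1.91 FPKM at T00 and at 153, 178 and 192 at T06. The chemokine genes Cxcl2 and Cxcl1, the colony-stimulating factor gene Csf3 and Ccl2 stood among the same 12. Csf3, which encodes the growth factor of neutrophils, was all but absent at T00 (0.0318, 0.0703 and 0.0154 FPKM) and reached 41.7, 58.2 and 42.7 at T06. Sprr1a, a gene of injured epithelia, rose by 5.35 ± 0.38, and Akap12, a kinase scaffold, rose by 5.06 ± 0.14. Gdf15, a stress cytokine, went from 6.77, 4.99 and 3.9 to 157, 243 and 251 FPKM.

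On the falling side, Cyp8b1, the enzyme that directs bile acids toward cholic acid, was at 103, 57.5 and 100 FPKM at T00 and at 16.1, 14.1 and 9.98 at T06, a difference of -2.59 ± 0.27 (adjusted p = 0.00089). Hal, which starts histidine breakdown, went from 165, 166 and 207 to 33.8, 31.3 and 66.1 FPKM. The orphan nuclear receptor gene Nr2f6 fell within a narrow spread, from 56, 52.7 and 56.9 to 13.3, 12.7 and 14.1 FPKM. Abcb11, the pump that exports bile salts into bile, fell by 1.91 ± 0.30. Further members were Mgam, Tmem25, Anks4b, Sucnr1 (the succinate receptor), Inhbe (an inhibin subunit), Il17rc and the pseudogene Gtpbp4-ps1. Gtpbp4-ps1 ranged from 3.77 to 12.5 FPKM within T00, and lost its call with all 12 WT libraries in the fit (adjusted p = 0.0588).

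**Figure D2:**
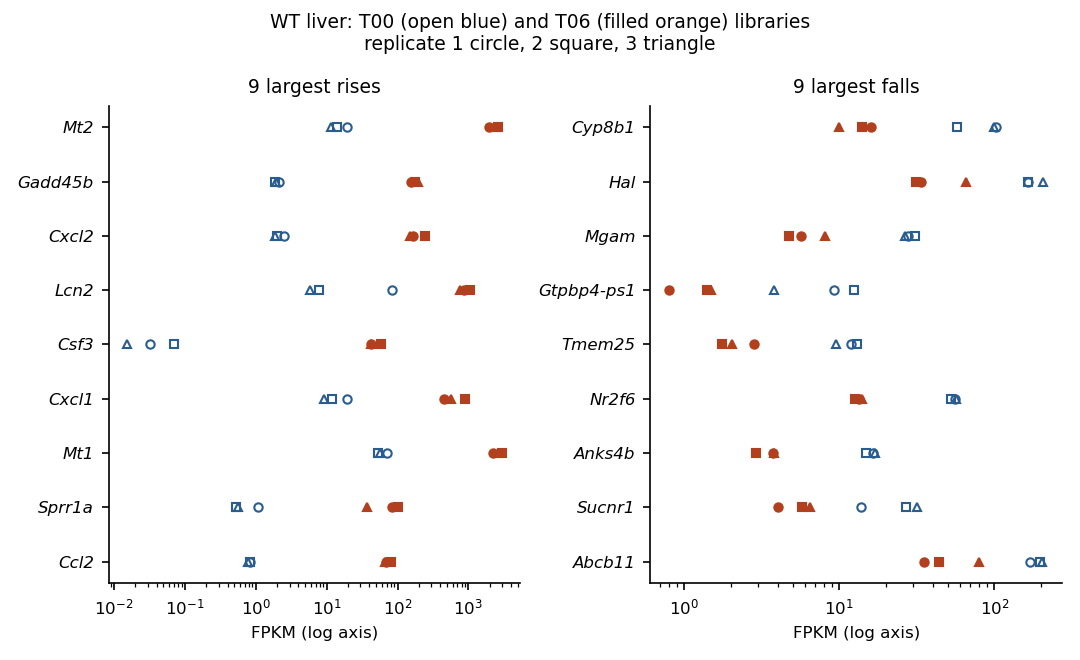
FPKM (log axis) in each WT library for the 9 largest rises and the 9 largest falls among genes with no library at 0, T00 as open blue and T06 as filled orange symbols. The T00 and T06 symbols do not overlap for any gene, as the choice of genes requires, and replicate 1 at T00 stands apart for Lcn2 (83.6 against 7.8 and 5.78).

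The promoters of 4 genes that rose are shown because short motifs of known stress factors lie in them. Each sequence is the 250 bases before the annotated start in RefSeq (GRCm38.p6), 5′ to 3′ on the gene's own strand, with motif matches in capitals. In Mt2 (chr8:94172368-94172617, plus strand) the capitals mark the core of the metal response element, searched as TGCGCNC and TGCACNC. In Cxcl1 (chr5:90890995-90891244, plus strand) and Cxcl2 (chr5:90903649-90903898, plus strand) they mark an NF-kB type site, GGANNTTCC. In Hspa1a (chr17:34972157-34972406, minus strand) they mark a heat shock type pair, GAANNTTC. All motifs were searched on both strands.
Mt2: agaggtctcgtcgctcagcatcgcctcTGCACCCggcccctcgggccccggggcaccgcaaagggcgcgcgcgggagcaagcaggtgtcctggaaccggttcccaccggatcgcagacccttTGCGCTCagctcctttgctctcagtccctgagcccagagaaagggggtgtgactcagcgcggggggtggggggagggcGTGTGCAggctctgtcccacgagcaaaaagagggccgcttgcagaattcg
Cxcl1: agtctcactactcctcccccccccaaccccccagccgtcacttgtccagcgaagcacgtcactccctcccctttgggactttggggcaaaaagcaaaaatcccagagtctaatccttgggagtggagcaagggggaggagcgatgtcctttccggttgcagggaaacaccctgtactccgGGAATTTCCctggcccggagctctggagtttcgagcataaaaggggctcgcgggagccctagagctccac
Cxcl2: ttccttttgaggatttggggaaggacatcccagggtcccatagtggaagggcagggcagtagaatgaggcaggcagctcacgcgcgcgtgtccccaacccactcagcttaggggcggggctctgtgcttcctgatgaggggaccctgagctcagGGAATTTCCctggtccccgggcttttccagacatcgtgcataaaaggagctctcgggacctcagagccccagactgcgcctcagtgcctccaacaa
Hspa1a: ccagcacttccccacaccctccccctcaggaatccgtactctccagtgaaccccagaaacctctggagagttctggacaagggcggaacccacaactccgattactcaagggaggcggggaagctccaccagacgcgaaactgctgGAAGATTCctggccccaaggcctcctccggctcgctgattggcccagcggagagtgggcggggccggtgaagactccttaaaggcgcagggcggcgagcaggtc

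The single match of the neighbouring chemokine genes is the same in both, GGAATTTCC, beginning 70 bases before the start in Cxcl1 and 96 before it in Cxcl2. Mt2 held 3 metal response cores, the nearest beginning 50 bases before the start. Of tested genes with a window, 390 of 8467 (4.61%) held the NF-kB type motif. In the list of cytokines, chemokines and NF-kB feedback genes, 10 of the 19 measured members with a window held it. The heat shock type motif was found in 528 of the 8467 (6.24%) and in 6 of 11 measured heat shock genes with a window. The metal response cores are frequent, the G form occurring in 24.8% and the A form in 12.5% of tested genes. These matches describe letters in a window and show neither binding nor a cause. The cytokine and heat shock lists hold genes known to respond to these factors. Their higher shares could therefore be foreseen from the choice of genes and are no result of these data.

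Immediate early genes, the transcription factors and regulators that respond first to growth factors, stress and injury, were almost all higher at T06. Of 19 measured members, 18 rose and none fell, against 23.8% of all tested genes higher, with a median difference of 2.75 against -0.10 over all genes. Fosl1, a member of the AP-1 family, was nearly silent at T00 (0.128, 0.0754 and 0.211 FPKM) and stood at 18.7, 32.1 and 17.1 at T06. Ier3, which moderates cell death under stress, went from 1.2, 1.84 and 3.16 to 69.6, 112 and 67.4 FPKM. Klf6, a zinc finger factor induced by liver injury, went from 2.44, 2.04 and 2.58 to 50.4, 84.7 and 40.2 FPKM. The growth factor-response gene Fos itself rose less, by 2.20 ± 0.25, and Jun by 2.51 ± 0.21. Myc, which drives growth genes, reached 32.2, 53.8 and 30.7 FPKM from 2.95, 6.08 and 2.02. The 1 measured member not called was Klf4 (0.59).

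Cytokines, chemokines and the feedback genes of NF-kB rose without exception among the 27 measured, each by at least 1, with a median of 3.24. Cxcl1, a chemokine that draws neutrophils, was at 19.3, 11.8 and 9.24 FPKM at T00 and at 448, 896 and 568 at T06 (5.46 ± 0.34, adjusted p = 0.000129). Cxcl2, its neighbour on chromosome 5, went from 2.5, 2.02 and 1.88 to 163, 246 and 151 FPKM. Ccl2, which draws monocytes, showed the tightest spread of the list, from 0.837, 0.841 and 0.773 to 68.2, 82 and 66.4 FPKM. The inhibitors that NF-kB induces against itself rose too. Tnfaip3, a ubiquitin-editing enzyme, went from 1.17, 1.17 and 1.61 to 34.4, 55.6 and 38.7 FPKM, and Nfkbia rose by 3.32 ± 0.16. Vcam1, an adhesion molecule for leukocytes, went from 4.05, 3.35 and 4.47 to 80.9, 102 and 68.5 FPKM. Il6 was at 0.356, 0 and 0.125 FPKM at T00 and at 18.6, 33.2 and 14.2 at T06. Replicate 2 had the highest T06 value for Cxcl1, Cxcl2, Ccl2, Tnfaip3, Vcam1 and Il6.

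Few markers of infiltrating blood cells reached the limit of 1 FPKM. Of 8 neutrophil markers 3 were measured and 1 rose, S100a8, from 4.14, 1.21 and 1.6 to 28, 8.45 and 5.24 FPKM. Their summed level was 5.11 to 11.6 FPKM at T00 and 13 to 73.8 at T06, and Ly6g was at 0 in 4 of the 6 libraries. Of 12 lymphocyte markers 4 were measured and 2 rose, Gzma and Cd79b, with sums of 7.32 to 8.63 and 10.9 to 15.6 FPKM. The call of S100a8 was lost without T00 replicate 2 (adjusted p = 0.106), T00 replicate 3 (0.0993) or T06 replicate 2 (0.0685), and that of Cd79b was lost without any 1 library (0.0519 to 0.146). Their part in the cytokine result was not tested.

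Acute phase proteins, the plasma proteins that liver secretes during inflammation, did not move as a group. Of 22 measured, 3 rose, 4 fell and the median was -0.33, and under equal nuclear totals 3 rose, none fell and the median was 0.07. Lcn2, an iron-binding defence protein, rose from 83.6, 7.8 and 5.78 to 870, 1060 and 749 FPKM. Orm3, an orosomucoid, went from 1.83, 1.65 and 0.953 to 19.4, 18.5 and 23 FPKM. Serpina3n, a protease inhibitor, went from 194, 135 and 140 to 306, 453 and 477 FPKM. Itih4 fell by 0.72 ± 0.13, a call lost under equal nuclear totals (adjusted p = 0.114).

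T00 replicate 1 stood apart in this group. Saa1, serum amyloid A, was at 2810 FPKM there against 142 and 73.5 in the other T00 libraries, and at 1750, 1160 and 860 at T06. Its difference was 1.96 ± 1.31 (adjusted p = 0.25) with all libraries and 3.55 ± 0.40 (adjusted p = 0.00387) without that library. Saa2 behaved alike, with 2.63 (adjusted p = 0.181) against 4.43 (adjusted p = 0.00268). Without that library 6 members rose and 4 fell, and Lcn2 rose by 6.84 in place of 5.69. These genes were singled out after their values were seen. Hamp, the iron hormone hepcidin, was lower in both replicate 1 libraries, at 475 and 507 FPKM against 1370 to 1880 in the other 4.

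Interferon-stimulated genes were higher in 13 of 19 measured and lower in 3, with a median of 0.91. Rsad2 (viperin), an antiviral enzyme, went from 2.16, 2.64 and 3.09 to 24.6, 35.5 and 53.5 FPKM, and Gbp2, a guanylate-binding protein, from 2.34, 2.23 and 1.6 to 9.87, 13.4 and 13.4. Stat2, a signal transducer of interferon receptors, and Bst2 (tetherin) were among the 3 that fell, by 0.68 and 0.67. Under equal nuclear totals 14 rose and only Bst2 fell.

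The list of genes that respond to glucocorticoids was mixed. Of 16 measured members, 11 rose and 2 fell, and the 4 of smallest p include both metallothioneins, which also respond to metals and to injury. Ddit4, an inhibitor of mTORC1 that also responds to hypoxia, went from 2.54, 1.42 and 1.82 to 35.4, 27.6 and 28.7 FPKM. Per1 is described with the clock. Sgk1, a kinase induced by glucocorticoids, rose by 2.35 ± 0.13, and Fkbp5, a chaperone of the glucocorticoid receptor, rose by 1.14 ± 0.15. Tsc22d3 (GILZ) and Klf9, both direct targets of the receptor, did not pass the test, at 0.16 ± 0.19 and 0.07 ± 0.14. Pck1, the gluconeogenic enzyme gene that glucocorticoids raise in liver, fell by 1.40 ± 0.20, and Tat, an aminotransferase used as a classic marker of the same hormone, fell by 0.85 ± 0.18, a call lost under equal nuclear totals (adjusted p = 0.145).

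In the clock list, 17 of 19 members were measured, of which 10 rose and 3 fell. Arntl was below the limit of 1 FPKM and was not tested. It was listed at 0.384, 0.126 and 0.392 FPKM at T00 and at 1.25, 0.814 and 0.899 at T06, so that the groups did not overlap. Npas2, which can stand in for CLOCK, was lower still, between 0.0276 and 0.271 FPKM. Clock rose by 0.43 ± 0.14 (adjusted p = 0.0455), a call lost under median-of-ratios scaling (adjusted p = 0.0549) and on leaving out any library but T00 replicate 1 (0.0707 to 0.138). Per1 was at 4.92, 4.51 and 5.25 FPKM at T00 and at 24.3, 28 and 23.2 at T06 (2.15 ± 0.11, adjusted p = 5.96e-05). Per2 did not pass the test (0.29 ± 0.24), while Per3 fell from 4.09, 5.63 and 4.55 to 1.61, 0.954 and 1.97 FPKM. Per1 rose and Per3 fell under each scaling tried.

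Repressors of the loop were mostly higher. Cry1 rose by 1.01 ± 0.19 and Cry2 by 0.98 ± 0.16. Nr1d1, the heme-binding repressor of Arntl, went from 29, 17.6 and 28.9 to 44.9, 43.3 and 47.2 FPKM, while its relative Nr1d2 did not pass the test (-0.09). Bhlhe40 and Bhlhe41, which compete with BMAL1 for its binding sites, rose by 1.95 ± 0.28 and 2.65 ± 0.24. Bhlhe41 went from 1.2, 0.787 and 1.45 to 9.47, 11.2 and 17.6 FPKM. Ciart, another repressor, went from 8.7, 6.04 and 8.55 to 36.7, 18.3 and 25. Nfil3 also rose.

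Activators of the D-box, a set of factors that read out the loop, were lower or did not pass the test. Dbp fell from 61.5, 73.4 and 76.3 to 32.3, 33.7 and 39.8 FPKM (-0.98 ± 0.13, adjusted p = 0.00204). Tef was at 43.2, 39.2 and 45.7 FPKM at T00 and at 15.2, 29.2 and 30.1 at T06, a fall that lost its call under equal nuclear totals (adjusted p = 0.146) and without any 1 of the T00 libraries (0.078 to 0.108). Hlf, the third of these factors, did not pass the test (0.06 ± 0.18). Rora, an activator of Arntl, rose by 0.74 ± 0.11.

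Protein-folding genes were split by compartment. Of 15 cytosolic heat shock genes 11 rose and none fell, with a median of 1.11. Hspa1a, the inducible HSP70, went from 1.75, 2.42 and 2.77 to 45, 56.9 and 42.9 FPKM, and its near-identical neighbour Hspa1b from 4.97, 7.38 and 4.78 to 84.6, 99.6 and 79.6. How reads were divided between this pair is uncertain. Hspb1 and Cryab, small heat shock proteins, rose by 3.52 ± 0.17 and 2.63 ± 0.09. Of 14 chaperones of the endoplasmic reticulum, 7 fell and 1 rose (Hspa5, 0.50 ± 0.16), but under equal nuclear totals only 1 fell and 2 rose. Without T00 replicate 1, 5 fell and 0 rose, so the call of Hspa5 was lost. Dnajb11, a co-chaperone of BiP, went from 70.8, 68.8 and 60.9 to 36.7, 30.6 and 32.1 FPKM. Pdia4, Calr and Herpud1 fell by 0.85, 0.69 and 0.54, calls that were all lost under equal nuclear totals (adjusted p = 0.0638, 0.183 and 0.239). Herpud1 also lost its call without T00 replicate 2 (0.053), T00 replicate 3 (0.0602) or T06 replicate 2 (0.0523).

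The integrated stress response, by which phosphorylated eIF2 favours translation of ATF4, was higher in 10 of 12 measured members. Ppp1r15a, the phosphatase subunit that ends this response, went from 6.05, 6.72 and 7.02 to 45.1, 61.5 and 48.9 FPKM. Sesn2 rose by 1.02 ± 0.13 and Asns, which makes asparagine, by 1.94 ± 0.39. Atf5 was the 1 member that fell, from 91.1, 74.9 and 94.1 to 41.9, 37.2 and 43.4 FPKM. Of 14 targets of NRF2, a transcription factor activated by oxidants, 8 rose and 1 fell. Hmox1, which degrades heme, went from 8.52, 7.96 and 9.59 to 144, 190 and 198 FPKM, and Srxn1, a peroxiredoxin repair enzyme, from 17, 12.2 and 11.3 to 113, 175 and 165. Nqo1, a standard marker of NRF2, did not pass the test (-0.19 ± 0.29).

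Targets of p53 were higher in 9 of 11 measured. Cdkn1a, the cell cycle inhibitor p21, went from 1.71, 1.47 and 2.27 to 74.4, 98.8 and 77.2 FPKM (4.90 ± 0.16, adjusted p = 2.07e-05). Mdm2 and Plk2 rose by 1.49 ± 0.15 and 2.36 ± 0.12. Genes of cell division stayed near or below the limit, with 5 of 18 measured and 3 of them higher (Cdk1, Mcm6 and Rrm2, none of which exceeded 7.83 FPKM).

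Hypoxia targets were higher in 11 of 14 measured and none fell. Slc2a1, the glucose transporter GLUT1, went from 2.71, 2.11 and 2.23 to 34.8, 42 and 30.3 FPKM. Adm, which encodes adrenomedullin, rose by 3.77 ± 0.25, and Pfkfb3, an activator of glycolysis, went from 8.71, 9.92 and 6.38 to 85.7, 145 and 123 FPKM. Vegfa rose by 0.88 ± 0.13. Bnip3 and Pdk1 did not pass the test. The glycolysis list overlaps this one in Hk2 and had 10 of 14 members higher and 1 lower. Hk1 and Hk2, hexokinases that hepatocytes keep low, went from 0.782, 0.733 and 0.903 to 12.1, 13.9 and 14.9 FPKM and from 0.476, 0.437 and 0.381 to 5.27, 5.4 and 5.12. Pkm, the pyruvate kinase of non-hepatic tissue, went from 2.29, 2.83 and 3.04 to 38.1, 30.4 and 33.8, and the lactate exporter gene Slc16a3 rose by 3.35 ± 0.14.

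**Figure D3:**
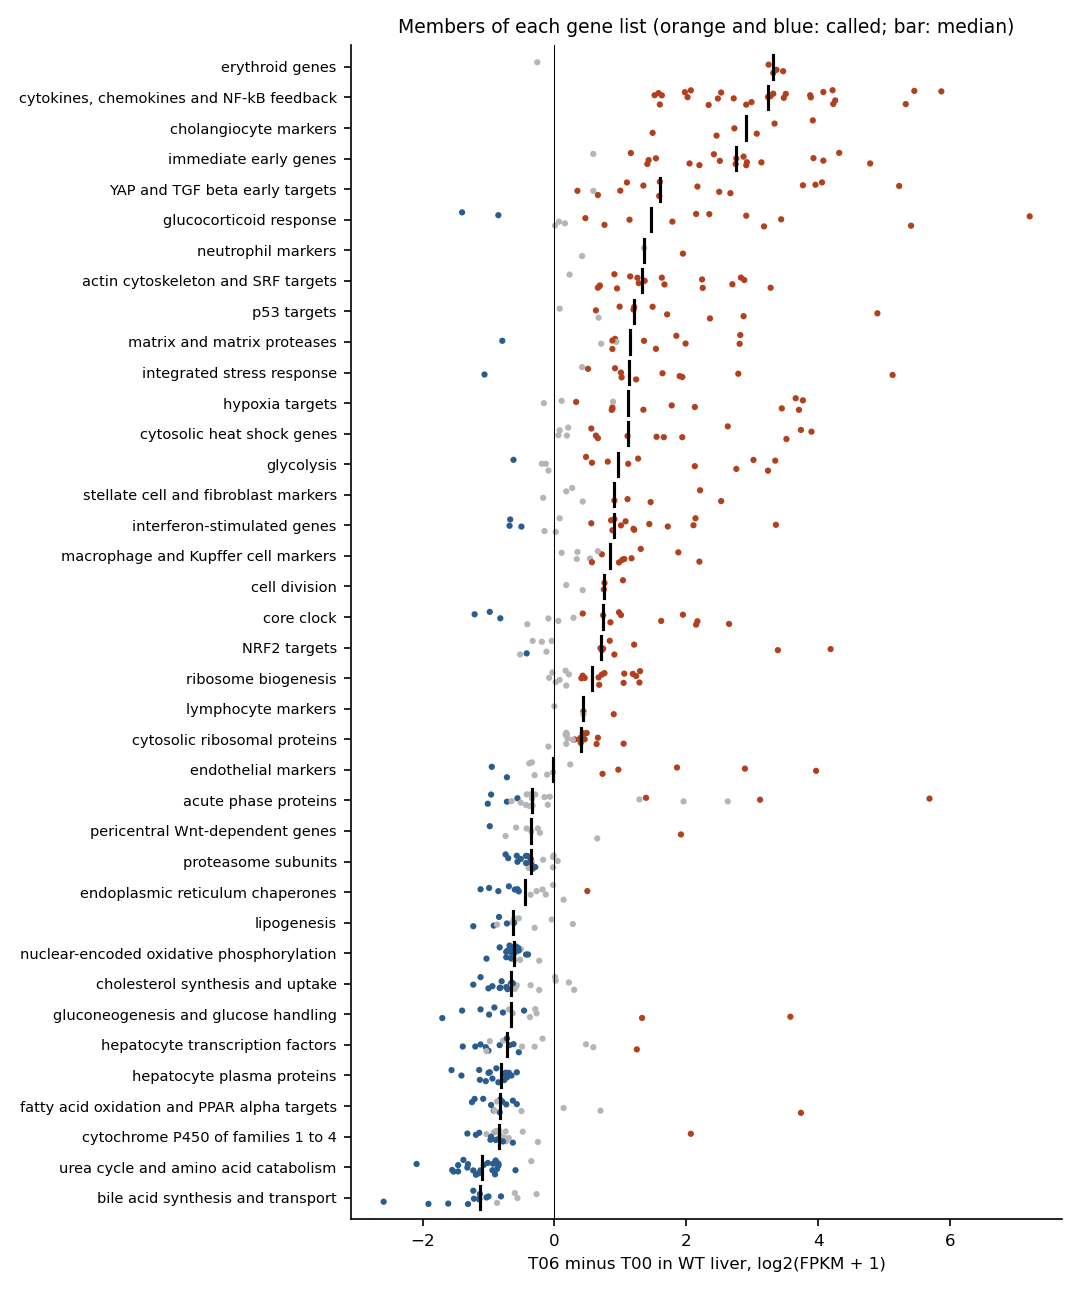
T06 minus T00 difference in log2(FPKM + 1) of every measured member of the 38 gene lists, ordered by list median (black bar), with called members in orange or blue and others in grey. Alb, listed at 0 throughout T00, is not drawn. Signalling and cytoskeletal lists lie to the right of 0 and hepatocyte functions to the left, as do the chaperones of the endoplasmic reticulum (-0.45), with medians from -1.13 for bile acids to 3.32 for the erythroid list.

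Genes of the hepatocyte's own functions were lower across nearly all lists. Of 21 plasma protein genes measured, 20 fell and the other was Alb, listed at 0 as described, with 12 still lower under equal nuclear totals. Apob, the scaffold of very low density lipoprotein, went from 1010, 877 and 889 to 251, 315 and 388 FPKM (-1.56 ± 0.18, adjusted p = 0.00122). Apoa1 went from 7900, 8780 and 8350 to 3690, 4390 and 4090, and Apoa5 from 355, 418 and 403 to 106, 174 and 171. In bulk tissue, fewer hepatocytes and less RNA per hepatocyte cannot be told apart.

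Genes of the urea cycle and amino acid catabolism fell in 23 of 24 measured members, against 28.6% of all genes, with a median of -1.10 and 20 lower under equal nuclear totals. Gldc, of glycine cleavage, went from 24, 18.5 and 23 to 6.68, 6.98 and 8.23 FPKM. Bhmt, which remethylates homocysteine, went from 332, 278 and 303 to 115, 88.6 and 111, and Nags, which makes the activator of the urea cycle, from 19.4, 18.5 and 21.3 to 7.11, 5.81 and 8.03. Gls2, liver glutaminase, fell by 1.55 ± 0.15. Cps1, the entry enzyme of the cycle, was at 583, 585 and 590 FPKM at T00 and at 205, 250 and 303 at T06. The exception was Oat, which did not pass the test (-0.35).

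Bile acid genes were lower in 12 of 16 measured, 10 of them by at least 1, with 7 lower under equal nuclear totals and none higher under either. Beside Cyp8b1 and Abcb11, Baat, which conjugates bile acids, went from 119, 122 and 121 to 31.8, 38.4 and 47.6 FPKM. Amacr, which shortens their side chain, went from 42.2, 46.6 and 47.4 to 17, 16.1 and 23.9. Cyp7a1, the rate-limiting enzyme of synthesis, fell by 1.31 ± 0.26 (adjusted p = 0.0556 under equal nuclear totals), and the uptake transporter gene Slc10a1 by 1.22 ± 0.29. Among 22 cytochrome P450 genes, 10 fell and 1 rose, with 6 lower under equal nuclear totals. The shares of all tested genes that fell were 28.6% and 9.72%. Cyp2f2, a periportal enzyme, went from 977, 1170 and 964 to 338, 381 and 541 FPKM, and Cyp4v3 from 124, 139 and 135 to 45.6, 56.8 and 81.5. Cyp2j5 and Cyp3a13 fell by 0.97 and 0.89. The rise was Cyp2b10, a target of the xenobiotic receptor CAR, at 0.112, 0.381 and 0.348 FPKM at T00 and 0.832, 5.89 and 11.1 at T06, a call lost without T00 replicate 1, when the list had none higher.

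Transcription factors of the hepatocyte were lower in 10 of 19 measured and 1 rose, with 4 lower and 3 higher under equal nuclear totals. Over all tested genes 28.6% were lower and 23.8% higher, or 9.72% and 33.6% under that scaling. Hnf4a went from 132, 108 and 97 to 48.4, 56.2 and 61.9 FPKM and Cebpa from 136, 125 and 118 to 53.9, 57.5 and 61.2. Nr1h4, the bile acid receptor FXR, fell from 61.8, 66.7 and 67.9 to 22.3, 24.5 and 26.2. Cebpb, which takes part in the acute phase and regeneration, was the 1 that rose, from 114, 81 and 64.2 to 190, 201 and 216 FPKM.

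Metabolic lists were lower in part, where 28.6% of all tested genes were lower, or 9.72% under equal nuclear totals. Fatty acid oxidation had 11 of 17 measured members lower (6 under equal nuclear totals), among them Cpt1a, the carnitine shuttle's rate-limiting enzyme, at 60.7, 63.2 and 65.7 FPKM and then 22.1, 25 and 31.5. Acadvl, an early enzyme of the pathway, fell by 1.21 ± 0.12. Pdk4, which blocks pyruvate oxidation, was the 1 that rose, from 0.561, 0.802 and 1.25 to 16.6, 38.2 and 20.9 FPKM. Glucose genes were lower in 7 of 14 (6 under equal nuclear totals). Pck1 went from 842, 873 and 756 to 324, 237 and 395 FPKM and the glycogen synthase gene Gys2 from 226, 410 and 306 to 67.6, 100 and 118. Igfbp1, an insulin-repressed binding protein, rose from 23.6, 22.6 and 9.67 to 122, 350 and 245, and Irs2 rose by 1.33. Fbp1 fell by 0.91 ± 0.17.

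Cholesterol synthesis had 11 of 20 measured members lower and none higher, but 2 lower and 2 higher under equal nuclear totals. Sc5d, a late enzyme of the pathway, fell by 1.12 ± 0.13 and was still called under that scaling, while the falls of Fdft1 and Nsdhl were not (adjusted p = 0.243 and 0.147). Lipogenesis had 5 of 12 lower (2 under equal nuclear totals), against 28.6% (9.72%) of all tested genes. Fasn, fatty acid synthase, was at 215, 439 and 200 FPKM at T00 and 123, 128 and 91.5 at T06, a fall that lost its call under equal nuclear totals (adjusted p = 0.0816) and without T06 replicate 3 (0.0564). Nuclear genes of oxidative phosphorylation were lower in 16 of 20 (8 under equal nuclear totals), led by Ndufs1 of complex I, which went from 62.4, 70.3 and 61.9 to 29.9, 34 and 29.8 FPKM. Proteasome subunits were lower in 12 of 20, but under equal nuclear totals 1 was lower and 3 were higher, and Psma1, Psma4 and Psmb5 lost their calls.

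Genes for building ribosomes were higher. Of 20 ribosome biogenesis genes 13 rose and none fell, with a median of 0.57. Nop56, of the box C/D particle, went from 19.2, 18.4 and 16.9 to 34.2, 42.3 and 40.5 FPKM, and Wdr43, Gnl3 and Ddx21 rose by 1.29, 1.19 and 1.24. Of 19 cytosolic ribosomal protein genes measured 11 rose and none fell, with a median of 0.40, which is close to the shift between scalings. Rpl10a had the largest difference, 1.05 ± 0.22. Ribosomal protein genes have many processed copies, so reads could have been divided among them.

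Genes of the actin cytoskeleton, targets of the serum response factor, were higher in 17 of 18 measured, with a median of 1.32. Actg1, cytoplasmic gamma actin, went from 7.67, 5.61 and 6.7 to 63.7, 77.2 and 78.7 FPKM. Tpm4, a tropomyosin, went from 7.08, 9.21 and 8.32 to 62.9, 65.7 and 63.5, and Zyx, of focal adhesions, from 10.6, 10 and 9.71 to 33.6, 39.1 and 30.9. Early targets of YAP and TGF beta were higher in 14 of 15. Ccn1 and Ankrd1, standard YAP targets, rose by 3.77 ± 0.36 and 4.06 ± 0.38. Tgif1, Skil and Tgfb1 rose by 2.67, 2.50 and 1.59. Of 12 matrix genes 9 rose and 1 fell (Fn1, by 0.79 ± 0.12). Timp3 went from 3.35, 6.84 and 7.1 to 37.4, 52.6 and 45.8 FPKM, and Timp1, a related inhibitor of matrix proteases, from 0.307, 0.136 and 0.0891 to 2.96, 4.48 and 2.46. Col4a1, of basement membranes, rose by 1.99 ± 0.15.

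Markers of other liver cells moved beside all of these lists. All 6 measured cholangiocyte markers rose, with a median of 2.90 and a summed level of 3.75 to 7.75 FPKM at T00 and 58 to 119 at T06. Krt19, a bile duct keratin, went from 1.5, 1.52 and 1.98 to 42.4, 52.5 and 27.1 FPKM, and Epcam, Sox9 and Mmp7 also rose. Cftr was below the limit. Of 14 macrophage and Kupffer cell markers 9 rose and none fell, with sums of 213 to 275 FPKM at T00 and 325 to 584 at T06. Marco and Cd68 rose by 2.20 ± 0.32 and 1.88 ± 0.21, and the differences of Cd163 and Adgre1 were 1.31 and 0.72. Clec4f and Vsig4 were among the 5 that did not pass the test (0.11 and 0.34).

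Endothelial markers divided. Of 13 measured 5 rose and 2 fell, with a median of -0.02, or 0.35 under equal nuclear totals, where 6 rose and none fell. Over all tested genes 23.8% rose and 28.6% fell, or 33.6% and 9.72% under equal nuclear totals. Lyve1, a hyaluronan receptor, went from 7.97, 5.65 and 5.49 to 117, 101 and 123 FPKM, and Cdh5, VE-cadherin, from 5.41, 6.56 and 7.89 to 51.3, 53.4 and 61.1. Pecam1 went from 4.62, 6.02 and 7.44 to 23.1, 22.7 and 26.9. Kdr, the VEGF receptor, and Gpr182 fell by 0.95 ± 0.25 and 0.72, and Stab2, of sinusoidal cells, did not pass the test (-0.02 ± 0.16). Stellate and fibroblast markers were higher in 5 of 9, including Acta2 (0.511, 0.287 and 0.909 FPKM, then 5.94, 5.1 and 15.8) and Lum.

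Globin messages, which mark red blood cells and their precursors, rose together. Hbb-bs went from 197, 304 and 420 to 3580, 3170 and 3050 FPKM, and Hba-a1 from 79.4, 158 and 193 to 1600, 1140 and 1150. Hba-a2 and Hbb-bt, their near-identical copies, rose by 3.37 and 3.32, and how reads were divided within each pair is uncertain. The summed level of the list was 422 to 861 FPKM at T00 and 5240 to 6680 at T06. Alas2, which makes heme in red cell precursors, did not pass the test (-0.26), and Slc4a1 was below the limit. The part of other cells in the rises and falls of the preceding lists was not tested.

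Of 9 measured genes that depend on Wnt signals around the central vein, 1 rose and 1 fell. Glul, glutamine synthetase, went from 69.2, 77.5 and 72.8 to 206, 337 and 312 FPKM (1.92 ± 0.20, adjusted p = 0.000819). Notum fell by 0.98 ± 0.28, a call lost under equal nuclear totals (adjusted p = 0.0842) and without T00 replicate 2 or 3 or T06 replicate 1 or 2 (0.0666 to 0.0779).

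The later WT libraries, given as values with no test, show how the levels stood afterwards. Of the 1443 genes higher by at least 1, 1229 (85.2%) also had all 3 T24 libraries above all T00 libraries, and of the 565 lower by at least 1, 544 (96.3%) had all T24 libraries below. Over all tested genes these shares were 33.2% and 39.6%. The genes were chosen against the same T00 libraries, which the shares for T24 reuse. Mt2 had a mean of 4210 FPKM at T12 and 3130 at T24, and Cxcl2 reached 492 at T24. Hmox1 was at 120 at T12 and 570 at T24. Tnfaip3 went back from 42.9 to 17.6 and 19.1, and Vcam1 from 83.7 to 25.9 and 13.8. The globin Hbb-bs was at 609 and 564, against 307 at T00. Cyp8b1, Apob and Dbp were lower still, at 10.1 and 3.96, 210 and 109, and 19.3 and 8.15. Il17rc was higher again, with means of 6.63 at T06, 15.2 at T12 and 11.6 at T24. Arntl stood at 1.74 and 2.76 and Clock at 4.68 and 5.97.

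**Figure D4:**
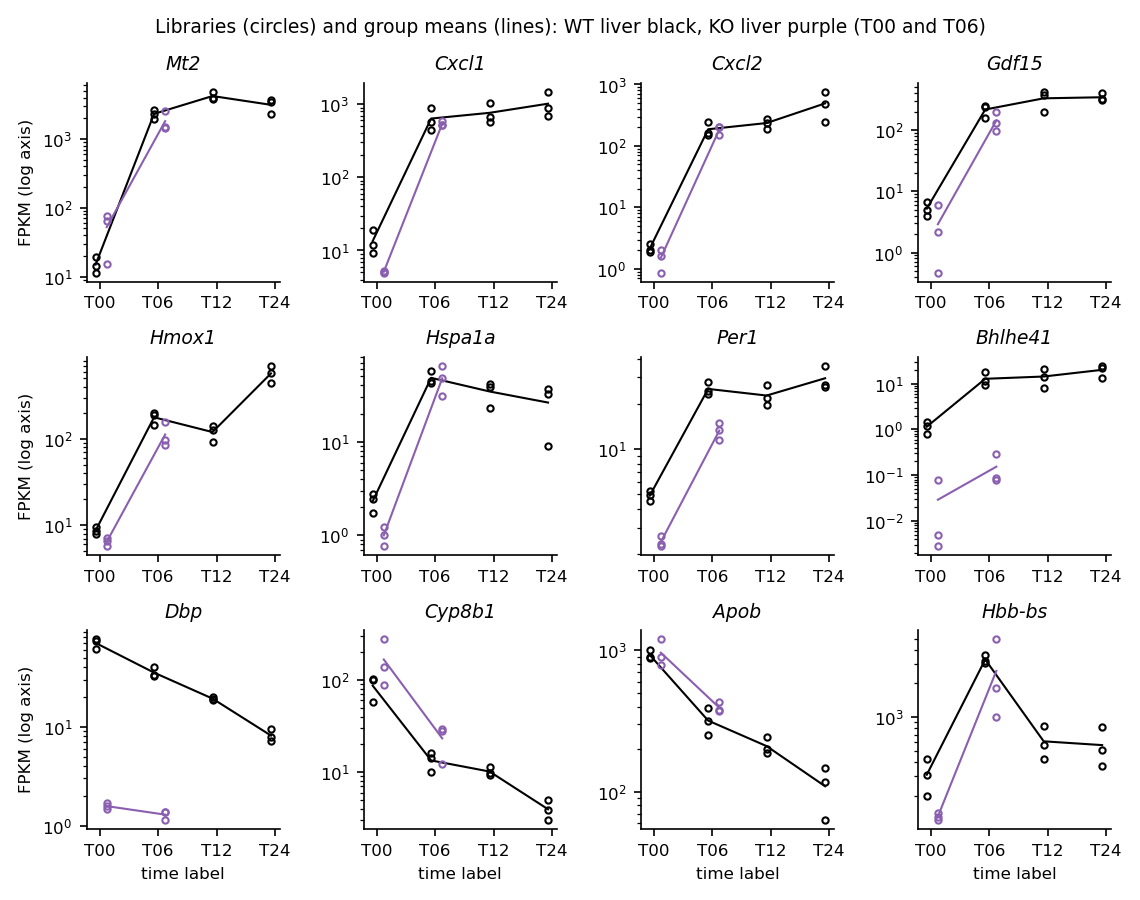
FPKM (log axis) of 12 genes in each WT library at T00, T06, T12 and T24 (black) and each KO library at T00 and T06 (purple), with lines through the group means and time labels drawn at equal steps. Mt2 and both chemokine genes stay far above T00 at T12 and T24, Hbb-bs is highest at T06, and the means of Dbp, Cyp8b1 and Apob decline at each step.

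The same interval in KO liver asks how the response compares without Bmal1. Arntl, the targeted gene, was listed in KO at a mean of 2.92 FPKM at T00 and 2.12 at T06, above the WT level, so that the value per gene does not check the deletion. Its targets Nr1d1 and Dbp were at 0.515 and 1.58 FPKM in KO at T00, against 25.2 and 70.4 in WT, and Npas2 was at 8.22, against 0.0304 in WT. In KO, 1368 genes were higher by at least 1 (11.2% of 12253 tested) and 444 were lower (3.62%). Of the large rises, 1156 were shared, which is 80.1% of the WT and 84.5% of the KO set. Of the large falls 241 were shared, 42.7% of the WT and 54.3% of the KO set. Sharing here required a call and a size of at least 1 in both genotypes. Among large WT rises also tested in KO, 13 of 1423 had a KO difference of opposite sign. Among large WT falls 11 of 562 did. Across 11919 genes tested in both, the correlation of the 2 differences was 0.83, a description over genes, which are not independent.

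The difference between WT and KO in this interval was called for 27 genes (0.22% of 12253), 18 with the higher value in WT and 9 with the lower. Leaving out genes listed at 0 in any of the 12 libraries left 15, a replicate block also left 15, and the fit on all 24 libraries left 10. Cdkn1a, Ndrg1 and Bhlhe41 were called in each of these 3 fits. The genes named here had values above 0 in every library. Cdkn1a rose by 4.90 in WT and 2.15 in KO, where it already stood at 22.8, 19.2 and 19.1 FPKM at T00. The difference of the responses was 2.75 ± 0.22 (adjusted p = 0.000325). Ndrg1, a hypoxia-responsive gene, was at 1.95, 2.47 and 3.22 FPKM in WT at T00 and at 19.1, 32.9 and 24.4 in KO, and reached 46.1, 44 and 44.9 and 54.9, 65 and 55.5 at T06 (2.52 ± 0.26). For both genes the WT and KO levels lay closer together at T06 than at T00.

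Bhlhe41 stayed under 0.3 FPKM in all KO libraries at T00 and T06. Its response differed by 2.49 ± 0.29, a call lost with a pseudocount of 0.1 (adjusted p = 0.242). Glul was at 211, 232 and 250 FPKM in KO at T00 and at 180, 184 and 241 at T06, so its WT rise had no counterpart (2.12 ± 0.26, adjusted p = 0.00646). The pseudogene Glns-ps1, which resembles Glul and may share its reads, showed the same pattern (2.30 ± 0.32), and lost its call with all 24 libraries (adjusted p = 0.122) and without WT T00 replicate 3 (0.0602) or KO T00 replicate 2 (0.0568) or 3 (0.0621). Grk5, a receptor kinase, Lgalsl, Fam129b and Fmnl2 were named after their values were seen. Each was lower in WT than in KO at T00, with Grk5 at 0.453, 0.344 and 0.421 FPKM against 8.89, 12 and 11. Of the other core clock genes none was called, and no member of the immediate early or cytokine lists was. With 0.22% of all genes called, lists this small could hold no call, so their absence is no evidence of equal responses. The median of the clock list was 0.74 in WT and 0.08 in KO. Cry1 differed by 1.01 in WT and -0.35 in KO (difference of responses 1.35 ± 0.25, adjusted p = 0.104).

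**Figure D5:**
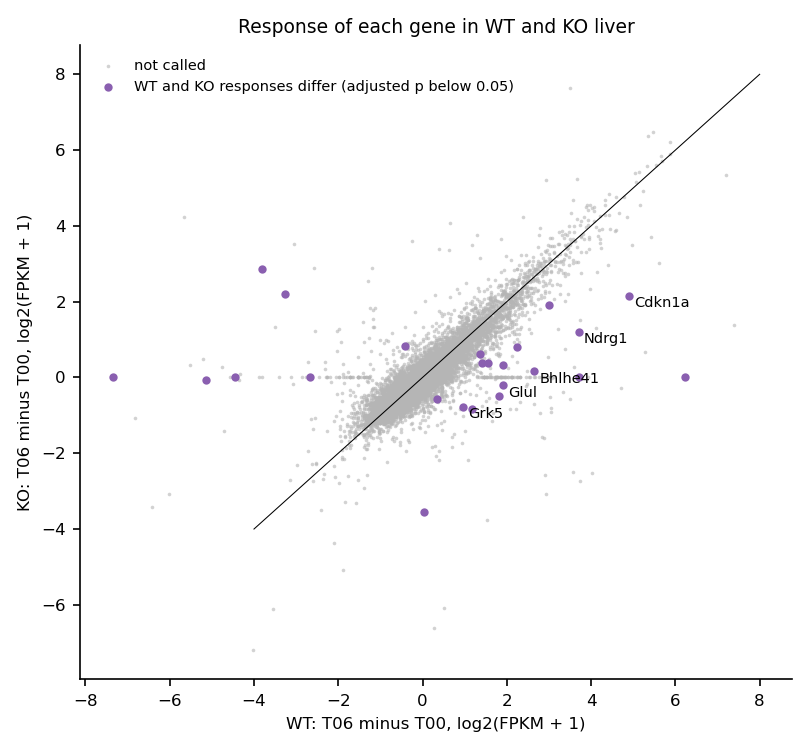
T06 minus T00 difference in log2(FPKM + 1) of each gene in WT (horizontal) and KO liver (vertical), with the line of equal response and, in purple, the genes whose responses differed. Genes beyond 8 on either axis are not drawn, most points follow the line, and Cdkn1a, Ndrg1, Bhlhe41 and Glul lie below it.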

How the data were processed

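Poly(A)-selected RNA was sequenced with a stranded kit, per the labels' protocols. TopHat2 2.1.0, the GRCm38 genome and Cuffdiff are named in the submitters' processing notes. The deposited values are FPKM per gene, computed by the authors. Neither the annotation release nor the use of strand, nor any scaling between libraries, is stated in the material at hand. Both runs of a library contribute to 1 column of values, and 0 per-sample columns of the table were left unmapped.

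Genes averaging at least 1 FPKM over the 6 libraries were tested on log2(FPKM + 1) in R 4.3.3, with limma 3.58.1 (empirical Bayes, with the variance allowed to follow the level) and Benjamini-Hochberg adjustment over all genes tested. WT used 6 libraries. KO, and the difference between WT and KO, used 12. Count tests were not used, since depth is unknown. The fit was tested on simulated data. Symbols were matched for 12098 of 12122 tested genes, and promoters come from RefSeq. SE is the moderated standard error.

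The comparison and the 38 gene lists (627 genes) were chosen with earlier results of these data known, so no list is independent evidence. The rule named the core clock, the 12 largest rises and falls with non-overlapping libraries and at least 5 FPKM, up to 4 called members per list by smallest p, and the largest differences between WT and KO, passing over numbered gene models. Other members were named after their values were seen. A few genes chosen by it are left out of the text.

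Alternatives were a pseudocount of 0.1, no filter, a minimum of 5 FPKM, median-of-ratios scaling, no trend, a replicate block, fits on 12 WT or all 24 libraries, and leaving out each library. Leaving out genes listed at 0 and equal totals of nuclear protein-coding genes were added after seeing the data. The totals were summed over genes above 0 in every library of the fit.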

Additional observations from a re-analysis of the deposited data

Results flagged for a closer look

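Responses that differed between WT and KO, by the test of that difference in limma, are given here as T06 minus T00 in WT less the same in KO, in log2(FPKM + 1). The values were 2.75 for Cdkn1a, 2.52 for Ndrg1, 2.49 for Bhlhe41 and 2.3 for the pseudogene Glns-ps1. Snord118, a small nucleolar RNA, had 3.58, was listed at 0 in all 3 KO libraries at T06, and lost its call without WT T00 replicate 1 or 3, WT T06 replicate 2 or 3, KO T00 replicate 2 or 3 or any KO library at T06 (adjusted p from 0.0864 to 0.159). The microRNA gene Mir1938 had -6.54 and was listed at 0 in the 9 other WT and KO libraries of T00 and T06, against a mean of 94.1 FPKM in KO at T06. It had means of 114 and 98.8 FPKM in WT at T12 and T24, and lost its call with all 24 libraries (adjusted p = 0.723). FPKM of genes this short, from poly(A)-selected RNA, are given without a fold. Groups of 3 libraries are too small for the test of single outlying values.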

How the results depend on the processing

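The 6348 calls as deposited became 6281 with the replicate number as a replicate block (2774 higher, 3507 lower). Of these, 5833 were called in the same direction in both fits. The 27 differences between WT and KO became 15. The labels number the replicates 1 to 3 at both times without saying what a number stands for. Same-numbered T00 and T06 libraries correlated at 0.1, 0.051 and 0.011 in their deviations from group means. Differently numbered libraries correlated at -0.097 to 0.047. Values this small do not settle whether the numbers mark pairs, and the main fit left the libraries unpaired. A minimum of 5 FPKM tests fewer genes and gave 1595 higher, and 1268 by at least 1 (802 higher). A pseudocount of 0.1 gave 900 lower by at least 1. Equal nuclear totals gave 1178 lower, 127 by at least 1. For WT against KO, 10 were called with all 24 libraries and 15 without genes listed at 0. Leaving out 1 library gave 4530 to 6352 calls, 2305 to 2840 higher and 2223 to 3512 lower (2223 without T00 replicate 2 and 2294 without T00 replicate 3), 1815 to 2337 by at least 1, and 18 to 37 between WT and KO. No gene named by the rule that passed the test changed direction under any setting. Nr1d2, which did not pass, went from -0.09 to 0.29 under equal nuclear totals. Genes named after their values were seen were not part of this check. With all 24 libraries 24 results named by the rule lost their call, among them Tef, Itih4, Herpud1, Cyp2j5, Notum, Fasn, Nsdhl, Fdft1, Cdk1, Rrm2, Lum, Gtpbp4-ps1 and Cd79b. With no filter 8 did, among them Apoa1 (adjusted p = 0.0942), Clock, Tef, Notum, S100a8 and Cd79b, and with 12 WT libraries 3 did, among them Lum (0.0766). Median-of-ratios scaling moved the share of calls that were higher from 45.4 to 43.4%. FPKM set no counting limit, and 3 libraries a group limit precision.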

Other observations

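Genes that share the stem of their symbol, for stems with at least 20 tested genes, were counted after the lists. Of all tested genes 23.8% were higher and 28.6% lower, or 33.6% and 9.72% under equal nuclear totals. Genes of the mitochondrial ribosome were lower in 38 of 50 (Mrpl, large subunit) and 22 of 30 (Mrps, small subunit), with 0 and 1 higher. Under equal nuclear totals these became 6 and 3 lower, with 2 and 2 higher. The stems Rpl and Rps hold mostly genes of the cytosolic ribosome, processed copies included. The Rps stem also takes in kinase genes such as Rps6ka1 and Rps6kb1. These stems were higher in 22 of 71 (Rpl, 31%) and 26 of 54 (Rps, 48.1%), with 2 and 4 lower. Under equal nuclear totals 56 and 42 were higher. Interleukin and interleukin receptor genes (Il) were higher in 19 of 28 and lower in 4, and Cd surface antigens higher in 36 of 52. Of 200 solute carriers (Slc) 41 were higher and 71 lower (20.5% and 35.5%), and under equal nuclear totals 55 were higher and 34 lower. Of 56 Cyp genes 2 were higher and 25 lower.

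Of the mitochondrial messages, mt-Nd1 was at 9170, 18200 and 15900 FPKM at T00 and at 56000, 91600 and 89500 at T06, and mt-Rnr1, a ribosomal RNA, rose by 2.66. The genes mt-Co1, mt-Co2, mt-Co3, mt-Atp6, mt-Nd4 and mt-Cytb were listed at 0 in all T06 libraries and in some at T00. Both mt-Atp8 and mt-Nd4l were listed at 0 in every T00 and T06 library.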
